A study of Homo sapiens with 9 samples.

Results

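The 10 genes described here belong to the Notch pathway and to the secretory cell fate it controls in the gut: the receptors NOTCH1, NOTCH2 and NOTCH3, the ligands JAG1, JAG2, DLL1 and DLL4, the transcriptional repressors HES1 and HEY1, and the transcription factor ATOH1. They were taken by symbol from a table of 60591 symbols, and all 10 were found in it. Of these, 9 were among the 15944 genes expressed well enough to be tested, and ATOH1 was not. The libraries came from undifferentiated, proliferating cells of the human colon adenocarcinoma line Caco-2 (uCaco-2). Control cells, cells with 300 μM cobalt (II) chloride (CoCl2) and cells with 5 μM of the oxyquinoline derivative OD, 3 biological replicates each, were lysed after 24 h, and 0.5% DMSO is stated for all of them. CoCl2 and OD served as chemical activators of HIF, the transcription factor that is stabilized when oxygen is low, and the question addressed here is how Notch pathway transcripts differed between these conditions.

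Notch signaling passes between touching cells. A ligand of the Jagged or Delta-like family on one cell binds a Notch receptor on its neighbour, ADAM proteases and then gamma-secretase cut the receptor, and the freed intracellular domain joins the DNA-binding protein RBPJ to switch on genes such as HES1 and HEY1. In the intestinal crypt, active Notch maintains progenitors and favours the absorptive fate through HES1, which represses ATOH1, the factor required for goblet, Paneth and enteroendocrine cells. HES1 also binds its own promoter and limits its own transcription.

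The total counts per library were 15998136 to 24209427, and replicates of every condition differed by more than counting alone allows (chi-square statistics of 1.74 to 3.05 times their degrees of freedom). Levels are given as CPM, a gene's count relative to the library total after scaling by the TMM factors of edgeR, which correct for shifts in library composition and were 0.770 to 0.795 with CoCl2 and 1.11 to 1.15 in the other libraries. Markers of the intestinal epithelial line were abundant in all 9 libraries, with 12522 to 18277 counts for EPCAM, at least 77848 for KRT8 and 786 to 1507 for CDX2, while VIL1 had 10633 to 12428 counts in control cells and 1397 to 2277 with CoCl2. Among markers of other cell types, the leukocyte genes PTPRC and CD3E had at most 6 counts and the fibroblast gene DCN at most 2, while COL1A1 had 135 to 480, COL3A1 74 to 150, PECAM1 20 to 55 and CDH5 0 to 11. The part of these transcripts in the results was not tested. The hypoxia genes VEGFA and NDRG1 had log2 fold changes of 1.22 and 3.70 with CoCl2 and 1.41 and 3.22 with OD. EGLN3 had 1.27 with CoCl2 and 0.35 with OD, the latter under a log2 fold change of 1, and CA9 had 0 to 1 counts in control libraries, 2 to 5 with CoCl2 and 10 to 16 with OD and was not tested. In bulk RNA, fewer cells of a type and less RNA per cell cannot be told apart.

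The HES1 promoter is shown first because it is the standard site of Notch output, and the JAG1 promoter because it was the one promoter searched that held ACGTG, the form with A of the core bound by HIF. Both windows run from 250 bases before to 50 bases after the transcription start and come from RefSeq on GRCh38.p14, where 8 of the 10 genes had an entry, all but DLL1 and HEY1. Capitals mark the core of the RBPJ motif (TGGGAA) in HES1, at chr3:194135898-194136197 on the plus strand, and ACGTG in JAG1, at chr20:10673950-10674249 on the minus strand. These motifs, the form GCGTG of the HIF core and the HES-binding N-box CACNAG were searched on both strands.
HES1: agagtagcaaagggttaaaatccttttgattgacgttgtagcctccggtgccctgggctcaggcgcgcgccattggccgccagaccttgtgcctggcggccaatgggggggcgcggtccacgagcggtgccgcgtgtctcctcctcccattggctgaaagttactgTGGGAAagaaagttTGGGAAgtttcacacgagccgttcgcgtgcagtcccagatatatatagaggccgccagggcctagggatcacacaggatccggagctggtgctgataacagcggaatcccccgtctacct
JAG1: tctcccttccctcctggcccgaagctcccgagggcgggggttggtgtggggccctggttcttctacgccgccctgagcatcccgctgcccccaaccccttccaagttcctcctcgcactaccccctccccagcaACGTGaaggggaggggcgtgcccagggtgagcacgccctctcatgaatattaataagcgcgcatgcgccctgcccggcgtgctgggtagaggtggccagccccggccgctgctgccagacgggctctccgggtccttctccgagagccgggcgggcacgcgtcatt

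The pair of RBPJ cores in HES1 began 84 and 70 bases before the start and lay on the same strand. None of the other 7 promoters held TGGGAA, which was found in 24.0% of 35116 RefSeq promoters, and 3.80% held it at least 2 times. HES1 also held 4 N-boxes, none of which overlapped an RBPJ core, against at least 4 in 0.29% of all promoters. JAG1 held the single match to ACGTG, a motif present in 21.4% of all promoters. The form GCGTG, found in 36.5% of all promoters, was held by 7 of the 8, all but NOTCH2. There were 4 copies in JAG1 and ATOH1, against at least 4 in 1.63% of all promoters. HES1 and NOTCH1 held 2, and JAG2, DLL4 and NOTCH3 held 1, none of the copies overlapping another motif searched. The 8 windows were 56.0% to 79.7% G or C. Promoters of like content were not compared, so no excess of GCGTG is read from these numbers. A match describes letters in a window and shows no binding in these cells.

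The pathway was expressed in uCaco-2, and its repressor HES1 led the 10 genes per length. Levels per kilobase (CPM divided by exon length) in control cells were 27.9 ± 0.312 (SD, n = 3) for HES1, 15.2 ± 0.321 for JAG1, 6.46 ± 0.222 for NOTCH2 and 5.96 ± 0.271 for NOTCH3. JAG2 followed with 4.42 ± 0.226, DLL1 with 1.88 ± 0.182, NOTCH1 with 0.554 ± 0.0876, DLL4 with 0.350 (range 0.278 to 0.464) and HEY1 with 0.0395 ± 0.0217. Neighbours in this order did not overlap between libraries, apart from NOTCH2 (6.21 to 6.64) and NOTCH3 (5.72 to 6.26). With CoCl2 the order differed at the top: JAG1 stood at 24.3 ± 1.42 CPM per kilobase, above HES1 at 20.8 ± 0.544, and DLL1 at 6.06 ± 0.816 was above NOTCH2 at 3.90 ± 0.106. NOTCH1 and DLL4 overlapped there (0.871 to 0.963 and 0.785 to 0.949 CPM per kilobase). With OD the order of control cells held except that JAG2 (6.80 to 7.61) overlapped NOTCH3 (7.01 to 7.30). The exon length counts every annotated exon of a gene, so a gene with many unused exons is placed too low.

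**Figure D1:**
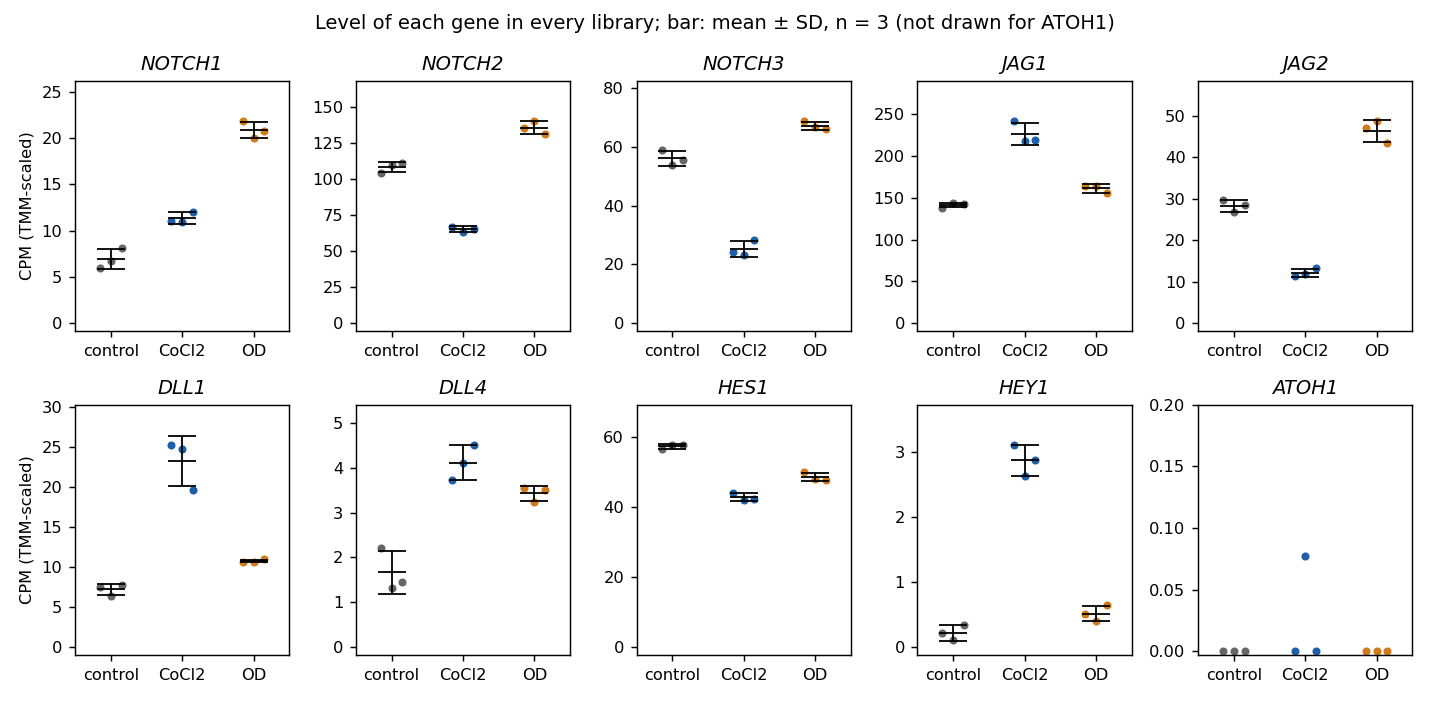
Level of the 10 genes in each of the 9 libraries, as TMM-scaled CPM on a linear axis that differs between panels, with 1 point per library and a bar for the mean ± SD of 3 replicates (not drawn for ATOH1). For the 9 tested genes no treated library overlaps a control library, as for 83.4% of all tested genes with CoCl2 and 68% with OD, and JAG2, NOTCH2 and NOTCH3 lie below control with CoCl2 and above it with OD.

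Differences between conditions were tested by edgeR's quasi-likelihood test over all tested genes and called at an adjusted p under 0.05 with a log2 fold change above 1 in size. With CoCl2, DLL1, DLL4 and HEY1 were called higher and NOTCH3 and JAG2 lower, 3 and 2 of the 9 tested members, where 19.9% and 23.4% of all tested genes were called. With OD, NOTCH1, DLL4 and HEY1 were called higher and none lower (9.09% and 4.16% of all tested genes). HES1 alone had an unadjusted p under 0.05 in the lower direction with OD, and DESeq2 called no member lower either. Between the treatments, DLL1 and HEY1 were called higher with CoCl2 and NOTCH2, NOTCH3 and JAG2 lower (17.5% and 23.8%). HEY1 reached the expression filter through the CoCl2 libraries alone, so its place among the tested genes required a high level there, and without it 2 of 8 members were called in each direction with CoCl2.

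At an adjusted p under 0.05 without a limit on the fold change, all 9 tested members passed with CoCl2 (83.2% of all tested genes) and with OD (65.6%), and 8 passed between the treatments (83.5%). With TMM scaling the libraries of the compared groups did not overlap for any of the 9 in any comparison, against 83.4% of all tested genes with CoCl2, 68% with OD and 83.8% between the treatments. With library size alone 8 of the 9 did not overlap with CoCl2 and 8 between the treatments. The share of all tested genes was not computed under that scaling, so these numbers have no background beside them. The shares given above were so high across all genes that the members' counts read as little more than the background. Each of these separations gave p = 0.1 by the exact two-sided permutation test, the smallest that 3 libraries against 3 allow. The control libraries are shared by both comparisons. Scaling by library size alone moved the median log2 fold change of all tested genes with CoCl2 from -0.049 to -0.55, and moved it with OD from -0.010 to 0.029, so differences with CoCl2 are relative to the TMM scaling.

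**Figure D2:**
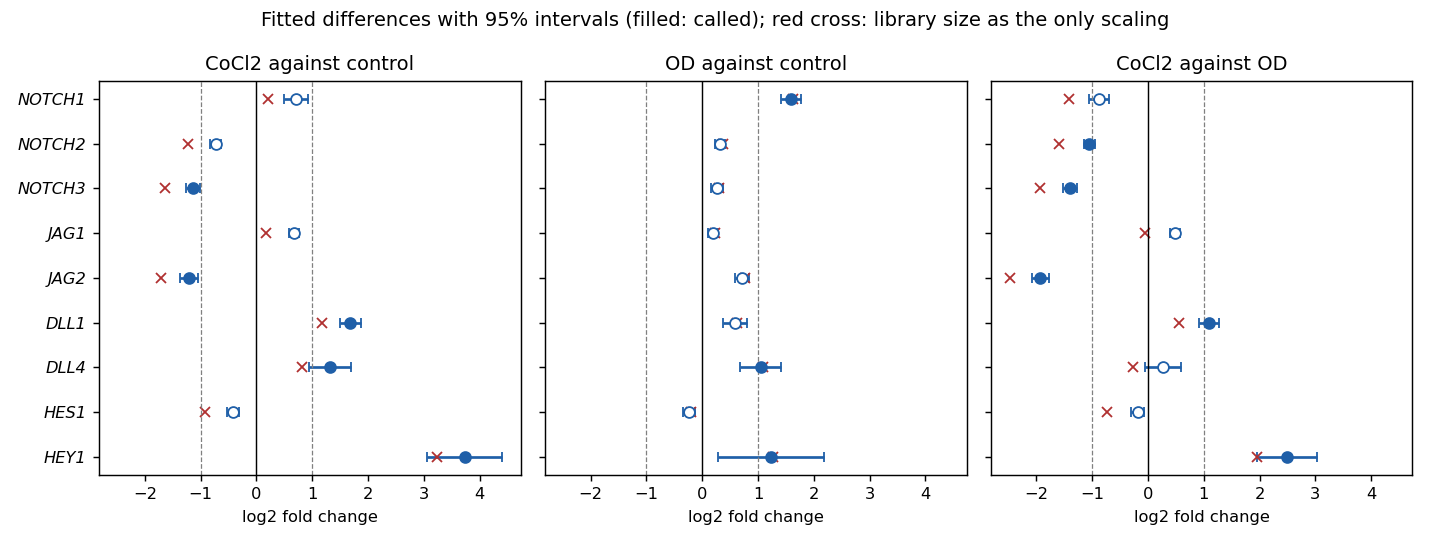
Fitted log2 fold changes of the 9 tested genes in 3 comparisons, with 95% intervals as bars, filled points for called genes, dashed lines at log2 fold changes of -1 and 1, and red crosses for the values when libraries were scaled by size alone. The crosses move left in both comparisons that involve CoCl2, and there those of JAG1 and DLL4 cross 0 between the treatments.

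The 3 receptors responded differently to the treatments. NOTCH1 (chromosome 9, 136494433 to 136546048, minus strand of GRCh38) had 111, 137 and 145 counts in the control libraries, 177, 141 and 230 with CoCl2 and 480, 451 and 390 with OD. Scaled for depth, control cells held 6.94 ± 1.10 CPM (SD, n = 3), against 11.3 ± 0.637 CPM after CoCl2 and 20.9 ± 0.894 CPM after OD. All OD libraries lay above all others, and the CoCl2 libraries lay between OD and control. The log2 fold change was 1.59 with OD (SE 0.093, adjusted p = 1.45e-23), called higher, and 0.72 with CoCl2 (SE 0.11, adjusted p = 1.57e-08), under the fold threshold. With library size alone the difference with CoCl2 was 0.21 and no longer passed (adjusted p = 0.0675), while the one with OD was 1.63. NOTCH1 was lower with CoCl2 than with OD by a log2 fold change of -0.87 (SE 0.088, adjusted p = 5.23e-14).

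NOTCH2 (chromosome 1, 119911553 to 120100779, minus strand) and NOTCH3 (chromosome 19, 15159038 to 15200995, minus strand) made up most of the receptor transcript, and both were lower with CoCl2 and higher with OD than in control cells. NOTCH2 had 1933, 2231 and 1981 counts in control cells, 1076, 819 and 1246 after CoCl2 and 2982, 3150 and 2456 after OD. The CPM were 108 ± 3.71, 65.2 ± 1.78 and 135 ± 4.52, without overlap. Its log2 fold change was -0.73 with CoCl2 (SE 0.049, adjusted p = 2.89e-21) and 0.32 with OD (SE 0.045, adjusted p = 5.4e-09), both under the fold threshold, and that between the treatments was -1.05 (SE 0.048, adjusted p = 1.5e-29). Reads of NOTCH2 can match its near-identical NOTCH2NL paralogs, and the counting rule for such reads is not given in the sources used here. NOTCH2NLA, NOTCH2NLB and NOTCH2NLC had 0 to 2 counts in each library, and NOTCH2NLR was not a symbol of the table.

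NOTCH3 had 1094, 1098 and 992 counts in control cells, 389, 301 and 539 after CoCl2 and 1512, 1500 and 1238 after OD. Its level was 56.1 ± 2.55 CPM in control cells, 25.3 ± 2.65 after CoCl2 and 67.1 ± 1.43 after OD, again without overlap. NOTCH3 fell 2.20-fold with CoCl2 (log2 fold change -1.14, SE 0.064, adjusted p = 3.65e-25). With OD its log2 fold change was 0.26 (SE 0.055, adjusted p = 3.63e-05), under the fold threshold, and CoCl2 was lower than OD by a log2 fold change of -1.40 (SE 0.062, adjusted p = 3.24e-30). NOTCH4, the receptor known from endothelium, had at most 9 counts in any library and was not tested.

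Summed per length, the 4 receptors stood at 12.8 to 13.2 CPM per kilobase in control libraries, 7.13 to 7.89 with CoCl2 and 16.5 to 17.2 with OD. This was 0.576 times control with CoCl2 and 1.30 times control with OD, or 0.406 and 1.34 times with library size alone. NOTCH2 supplied 47.9% to 50.9% of the sum in control cells, 49.5% to 53.6% after CoCl2 and 47.2% to 49.0% after OD, so its share with either treatment overlapped that in control cells, while the CoCl2 libraries lay above the OD libraries. NOTCH1 supplied 3.68% to 4.91% in control cells, 11.8% to 12.2% after CoCl2 and 9.37% to 10.1% after OD. NOTCH3 went from 44.6% to 48.3% in control cells down to 34.5% to 38.1% with CoCl2 and 41.5% to 42.6% with OD. These shares do not depend on the scaling of the libraries.

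**Figure D3:**
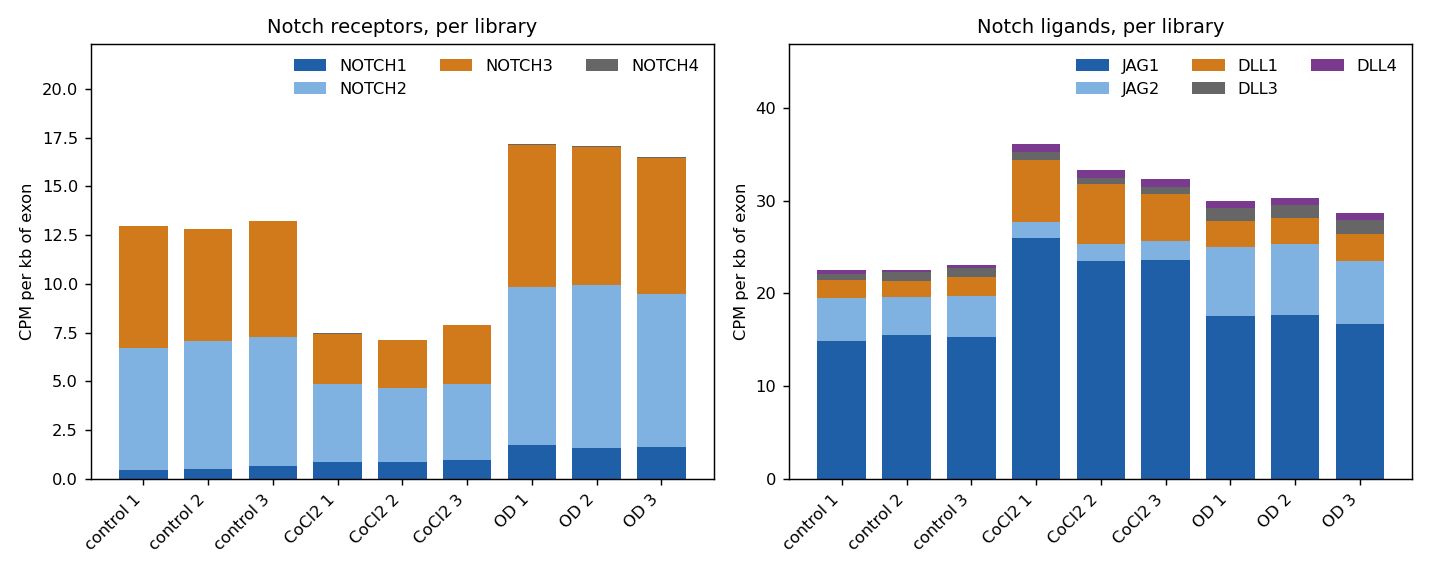
Stacked bars of CPM per kilobase of exon for the 4 Notch receptors (left) and 5 ligands (right), with 1 bar per library and axes starting at 0. The receptor sum is 7.13 to 7.89 with CoCl2 against 12.8 to 13.2 in control libraries, while the ligand sum is 32.4 to 36.1 against 22.5 to 23.0.

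Among the ligands, DLL1 and DLL4 rose with CoCl2 and JAG2 fell. JAG1 (chromosome 20, 10637684 to 10673999, minus strand), a ligand that binds all these receptors, was the most abundant, with 2566, 2934 and 2535 counts in control cells, 3881, 2817 and 4179 after CoCl2 and 3603, 3707 and 2918 after OD. In CPM this is 141 ± 2.98, 226 ± 13.2 and 161 ± 5.04, with the 3 conditions apart from each other. Its log2 fold change was 0.68 with CoCl2 (SE 0.044, adjusted p = 3.84e-22) and 0.19 with OD (SE 0.044, adjusted p = 0.000134), neither past the fold threshold. With library size alone these values were 0.17 and 0.23. The difference between the treatments was 0.49 (SE 0.043, adjusted p = 4.25e-16), and it was -0.058 with library size alone (adjusted p = 0.186).

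JAG2 (chromosome 14, 105140982 to 105168824, minus strand), the other Jagged ligand, went in opposite directions with the treatments. It had 551, 546 and 506 counts in control cells, 181, 153 and 252 after CoCl2 and 1038, 1096 and 817 after OD, or 28.3 ± 1.44, 12.1 ± 1.00 and 46.4 ± 2.64 CPM. JAG2 fell 2.32-fold with CoCl2 (log2 fold change -1.21, SE 0.080, adjusted p = 9.93e-22). With OD it was 1.65-fold higher, under the fold threshold (log2 fold change 0.72, SE 0.063, adjusted p = 6.55e-16). CoCl2 was 3.82-fold lower than OD (log2 fold change -1.93, SE 0.075, adjusted p = 1.53e-33), the farthest apart of the 9 genes in the lower direction. In the annotation 7.33% of its exonic bases are shared with a gene on the same strand.

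DLL1 (chromosome 6, 170282206 to 170306565, minus strand), a Delta-like ligand, had 138, 130 and 137 counts in control cells, 405, 319 and 373 after CoCl2 and 234, 240 and 205 after OD. Its level of 7.16 ± 0.694 CPM in control cells compared with 23.2 ± 3.12 with CoCl2 and 10.7 ± 0.160 with OD. DLL1 rose 3.22-fold with CoCl2 (log2 fold change 1.69, SE 0.098, adjusted p = 1.81e-24) and was higher with OD under the fold threshold (log2 fold change 0.59, SE 0.11, adjusted p = 2.12e-06). Replicate 3 was the lowest of the CoCl2 libraries at 19.6 CPM but lay above all control and OD libraries. The difference between the treatments was 1.10 (SE 0.089, adjusted p = 9.93e-18), and under the fold threshold with upper-quartile factors (0.97) or library size alone (0.55). Of its exonic bases 9.69% lie opposite FAM120B on the other strand, and it is not stated whether the counting used strand.

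DLL4 (chromosome 15, 40929340 to 40939073, plus strand), a Delta-like ligand best known from blood vessels, had fewer counts than JAG1, JAG2 or DLL1 in every library. It had 41, 27 and 26 counts in control cells, 60, 53 and 86 after CoCl2 and 78, 73 and 66 after OD, and 1.66 ± 0.475, 4.11 ± 0.389 and 3.43 ± 0.167 CPM. DLL4 rose with both treatments, by log2 fold changes of 1.32 with CoCl2 (SE 0.19, adjusted p = 4.06e-09) and 1.05 with OD (SE 0.19, adjusted p = 1.34e-06). The difference between them, 0.27, had a 95% interval of -0.046 to 0.59 and did not pass (adjusted p = 0.107). DLL4 was no longer called with OD without control replicate 2 (0.89) or control replicate 3 (0.97), nor with CoCl2 under library size alone (0.81), each time through the fold threshold and with an adjusted p of 0.000136, 5.1e-05 and 0.000129. The endothelial genes PECAM1 and CDH5 had 39 to 49 and 1 to 6 counts in control libraries, 20 to 23 and 0 to 1 with CoCl2, and 38 to 55 and 5 to 11 with OD, and their part in the level of DLL4 was not tested.

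Per length, the 5 ligands including DLL3 summed to 22.5 to 23.0 CPM per kilobase in control libraries, 32.4 to 36.1 with CoCl2 and 28.7 to 30.2 with OD. The sum was 1.49 times control with CoCl2 and 1.31 times with OD, and 1.05 and 1.34 times with library size alone. With that scaling the CoCl2 libraries (25.5 to 27.8) overlapped the control libraries (25.0 to 25.7). JAG1 supplied 65.8% to 68.6% of the sum in control cells, 70.5% to 72.8% after CoCl2 and 58.2% to 58.7% after OD. JAG2 supplied 18.6% to 20.5%, 4.88% to 6.38% and 23.7% to 25.2%, and DLL1 7.40% to 8.74%, 15.8% to 19.4% and 9.23% to 9.96%. With CoCl2, DLL1 thus took a larger share of the ligand transcript than JAG2 in every library, the reverse of the order in control cells and with OD.

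The repressors HES1 and HEY1, both transcribed in response to Notch, moved apart. HES1 (chromosome 3, 194136148 to 194138732, plus strand) had 1052, 1177 and 1029 counts in control cells, 708, 542 and 807 after CoCl2 and 1099, 1085 and 897 after OD. In CPM this is 57.3 ± 0.642, 42.8 ± 1.12 and 48.6 ± 1.14, with no overlap between conditions. HES1 was 1.34-fold lower with CoCl2 (log2 fold change -0.42, SE 0.056, adjusted p = 4.66e-10) and 1.18-fold lower with OD (-0.24, SE 0.053, adjusted p = 7.81e-05), both under the fold threshold. The treatments differed by -0.18 (SE 0.056, adjusted p = 0.0022). With library size alone the log2 fold change was -0.93 with CoCl2, -0.20 with OD and -0.73 between the treatments, so its size with CoCl2 depended on the scaling. HES1 was the one tested member below control with both treatments, under every alternative tried.

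HEY1 (chromosome 8, 79762371 to 79767857, minus strand) had 4, 2 and 6 counts in control cells, 50, 34 and 55 after CoCl2 and 11, 9 and 12 after OD. Its CPM were 0.217 ± 0.119, 2.88 ± 0.240 and 0.513 ± 0.120. The CoCl2 libraries stood far above the rest, and the lowest OD library at 0.400 CPM was just above the highest control library at 0.337. HEY1 rose with CoCl2 by a log2 fold change of 3.73 (SE 0.33, adjusted p = 4.22e-16), the largest among the 9 genes, and by summed counts of 139 against 12 it was 13.7 times control (95% exact counting interval 7.59 to 27.1). It was also higher with CoCl2 than with OD, by 2.50 (SE 0.27, adjusted p = 5.66e-13). HEY1 reached the expression filter through the CoCl2 libraries alone, so these differences and its rank among the 9 genes are given as description only. With OD the log2 fold change of 1.23 (SE 0.47, adjusted p = 0.017) rested on few counts, 32 against 12 or 2.39 times control (interval 1.20 to 5.10). That call was lost without control replicate 2 (0.86, adjusted p = 0.128), without OD replicate 3 (1.07, adjusted p = 0.0676) and with DESeq2 on all 9 libraries (adjusted p = 0.0583) or on 6 (adjusted p = 0.152), and its adjusted p ranged from 0.00827 to 0.152 over the alternatives. Such intervals cover counting error only.

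ATOH1 (chromosome 4, 93828753 to 93830964, plus strand), the secretory fate factor, had 1 count in CoCl2 replicate 2 and 0 in the other 8 libraries. A count of 0 allows up to 3 counts, which is 0.133 to 0.187 CPM in those 8 libraries. ATOH1 was therefore at or near the limit of detection in all conditions, and no fold change is given.

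The pattern of HES1 over the 9 libraries was most like those of H2AZ2, PABPC4 and CSTF1, with Euclidean distances of 0.091, 0.12 and 0.12 between log2 CPM centred on control cells, among 13428 genes of at least 1 CPM. That of JAG1 was most like WNK1, BTBD10 and TECR, with distances of 0.12 each. Pearson correlations of these 6 genes with HES1 or JAG1 were 0.978 to 0.991 over the same 9 libraries, which describes 3 conditions and not 9 independent points.

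The other genes of the pathway and of the secretory lineages were taken from a list of 99 genes by role, of which 71 were tested. With CoCl2, 13 of the 71 were called higher (18.3%) and 17 lower (23.9%), with a median log2 fold change of 0.013 against -0.049 over all tested genes. With OD, 9 were called higher (12.7%) and 2 lower (2.82%), with a median of 0.15 against -0.010. Of the genes called higher, HES2, NEURL1 and SPDEF reached the expression filter through the OD libraries alone, and CCK through the CoCl2 libraries alone. Their place among the tested genes required a high level there, so no excess of the list with OD is drawn from these shares. Against control, the shares with CoCl2 lay close to those of all tested genes given above. Between the treatments 8 were called higher with CoCl2 (11.3%, against 17.5% of all tested genes) and 23 lower (32.4% against 23.8%). HES2, NEURL1 and SPDEF, tested through the OD libraries, and CCK, tested through the CoCl2 libraries, are part of this comparison too. No excess or deficit of the list is therefore drawn from these shares either.

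**Figure D4:**
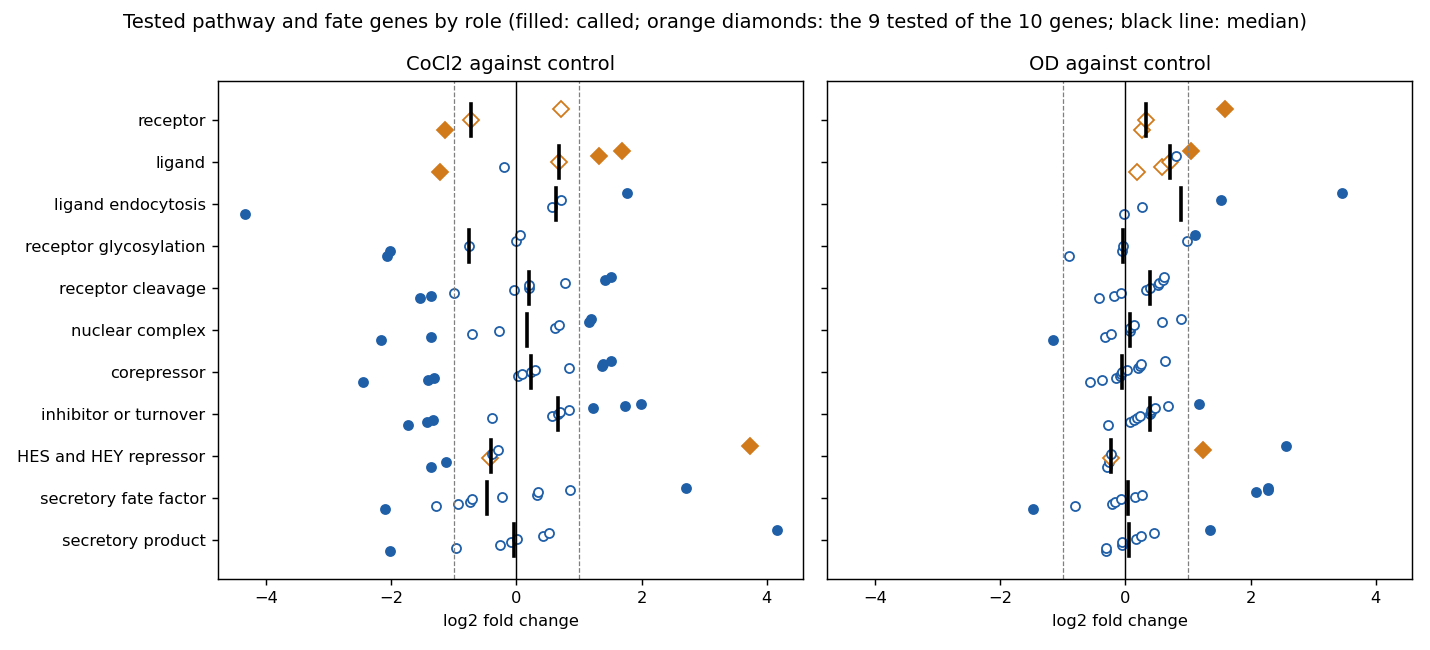
Log2 fold changes against control cells of the 80 tested pathway and secretory fate genes by role, with CoCl2 (left) and OD (right), filled symbols for called genes, orange diamonds for the 9 tested members and a black line for each role's median. With CoCl2 most roles hold called genes on both sides of 0, and with OD few genes pass the dashed lines at -1 and 1.

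Ligands must be taken up by the sending cell to pull on the receptor. Ubiquitin ligases of the Mindbomb (MIB1, MIB2) and Neuralized (NEURL1, NEURL1B) families can act in this step. NEURL1B fell from 267, 310 and 268 counts in control cells to 13, 8 and 14 with CoCl2, a log2 fold change of -4.34 (SE 0.16, adjusted p = 2.29e-34), and had 396, 385 and 348 with OD (0.26, adjusted p = 0.00298). NEURL1 had 1 to 3 counts in control cells, 5 to 10 after CoCl2 and 26 to 37 after OD, which is 11.5 times control with OD (exact counting interval 5.37 to 29.5) and 3.55 times with CoCl2 (1.45 to 9.87). The call with CoCl2 was lost with DESeq2 on 6 libraries (adjusted p = 0.0952). MIB2 rose with OD by a log2 fold change of 1.52 (SE 0.085, adjusted p = 1.25e-24) and had one of 0.71 with CoCl2. MIB1 had 0.56 with CoCl2 (SE 0.060, adjusted p = 8.57e-12), under the fold threshold, and -0.016 with OD (adjusted p = 0.834). With library size alone its value with CoCl2 was 0.055 (adjusted p = 0.41).

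POFUT1 and POGLUT1 add the fucose and glucose that the receptor needs on its extracellular repeats, and both fell about equally with CoCl2. POFUT1 had 3788 to 4173 counts in control cells, 652 to 1092 after CoCl2 and 3820 to 4529 after OD, with log2 fold changes of -2.03 (SE 0.051, adjusted p = 1.23e-43) and -0.050 (adjusted p = 0.327). POGLUT1 had a log2 fold change of -2.07 with CoCl2 (SE 0.11, adjusted p = 2.86e-27) and -0.91 with OD, the latter under the fold threshold. Of the Fringe enzymes, which extend the fucose and shift the preference for ligands, MFNG rose with OD (1.11, SE 0.22, adjusted p = 1.15e-05), LFNG had 0.98 with OD and 0.061 with CoCl2, and RFNG passed in no comparison.

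The proteases that cut the receptor included members called in both directions with CoCl2 and none with OD, where 7 of 9 passed the adjusted p alone (65.6% of all tested genes did). PSEN2, a subunit of gamma-secretase, fell with CoCl2 (-1.37, SE 0.089, adjusted p = 1.44e-20). In the annotation 38.68% of its exonic bases are shared with a gene on the same strand. APH1B, another subunit, had -1.54 (SE 0.11, adjusted p = 1.47e-20). ADAM17 rose by 1.41 (SE 0.056, adjusted p = 6.89e-33), and ADAM10, the main protease of ligand-bound Notch, had -0.032 with CoCl2 (adjusted p = 0.518) and 0.40 with OD.

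In the nucleus, RBPJ, the DNA-binding partner of the Notch intracellular domain, was higher with both treatments under the fold threshold, with log2 fold changes of 0.69 with CoCl2 (adjusted p = 1.73e-14) and 0.59 with OD (adjusted p = 3.8e-12). The coactivator MAML2 fell with CoCl2 (-2.16, SE 0.12, adjusted p = 1.13e-24), and MAML3 fell with OD (-1.15, SE 0.094, adjusted p = 4.21e-17). MAML3 was also lower with CoCl2, under the fold threshold (-0.71, adjusted p = 6.47e-10). SNW1 and the acetyltransferase EP300 rose with CoCl2, by 1.16 and 1.19, and the acetyltransferase KAT2A fell, with -1.37. Of 11 corepressors, SPEN (1.39), TLE3 (1.36) and TLE4 (1.51) rose with CoCl2 and CTBP1 (-1.41) and TLE2 (-2.45) fell, and none was called with OD by edgeR, although 7 of them passed the adjusted p alone, a share close to that of all tested genes. With library size alone, SPEN, TLE3, SNW1, EP300 and ADAM17 were under the fold threshold with CoCl2, at 0.65 to 0.90.

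Among genes that dampen or turn over Notch, NRARP, a Notch-induced inhibitor of the nuclear complex, had 215, 238 and 203 counts in control cells, 905, 599 and 693 after CoCl2 and 205, 205 and 192 after OD. NRARP rose with CoCl2 by a log2 fold change of 2.00 (SE 0.16, adjusted p = 6.62e-07) and had -0.28 with OD (adjusted p = 0.229). FBXW7, the ubiquitin ligase that marks the intracellular domain for destruction, rose with CoCl2 by 1.74 (SE 0.065, adjusted p = 3.48e-34) and had 0.23 with OD. NUMB, an endocytic inhibitor of Notch, rose by 1.22 (SE 0.046, adjusted p = 6.9e-34), and by 0.71 with library size alone. DTX3L and DTX4 of the Deltex family fell with CoCl2, with -1.74 and -1.34. DLK2, a non-canonical ligand with 9 to 18 counts in control cells, fell with CoCl2 (-1.43, adjusted p = 0.00325) and rose with OD (1.17, adjusted p = 0.000246). Its call was lost without CoCl2 replicate 1 (adjusted p = 0.0517) or with DESeq2 on 6 libraries (adjusted p = 0.0727) in the former, and without control replicate 3 (0.97) or OD replicate 2 (0.99) in the latter.

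Of the other HES and HEY repressors, 2 were called lower with CoCl2 and 1 higher with OD. HES4 fell with CoCl2 (-1.36, SE 0.11, adjusted p = 2.12e-17), as did HEYL (-1.13, SE 0.18, adjusted p = 4.08e-08, and -0.99 without CoCl2 replicate 2). HES6, which counters HES1, had -0.30 with CoCl2 and -0.26 with OD, both under the fold threshold. HES2 had 7 to 10 counts in control cells, 4 to 8 after CoCl2 and 46 to 70 after OD, and its summed counts with OD were 5.99 times control (exact counting interval 3.92 to 9.53), called at a log2 fold change of 2.57. HES2, like NEURL1 and SPDEF with OD and CCK with CoCl2, reached the expression filter only through the group where it was high, so its place among the tested genes required a high level there. HES5, HES7 and HEY2 had at most 5 counts in any library and were not tested.

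Of 20 secretory fate factors besides ATOH1, 10 were tested. KLF4, a factor of goblet cells and of the differentiated surface, rose with both treatments, from 66, 81 and 66 counts in control cells to 394, 321 and 461 with CoCl2 (2.71, SE 0.10, adjusted p = 5.8e-34) and 431, 416 and 311 with OD (2.28, SE 0.10, adjusted p = 7.36e-29). GFI1 and SPDEF, which act after ATOH1 in goblet and Paneth cells, were called higher with OD from low levels. GFI1 had 28 to 32 counts in control cells, 27 to 38 after CoCl2 and 116 to 158 after OD (2.09, SE 0.16, adjusted p = 2.25e-18). SPDEF had 4 to 6, 1 to 2 and 22 to 31 counts, 4.96 times control with OD (exact counting interval 2.84 to 9.27), and with CoCl2 its log2 fold change of -1.29 did not pass (adjusted p = 0.0685). ASCL2, a stem cell factor, fell with CoCl2 (-2.10, SE 0.12, adjusted p = 3.37e-20), and FOXA1 fell with OD (-1.48, SE 0.056, adjusted p = 4.99e-33). Both were also lower with the other treatment, under the fold threshold. ASCL2 had -0.80 with OD (adjusted p = 5.09e-10), and FOXA1 had -0.74 with CoCl2 (adjusted p = 1.25e-19).

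Of 20 secretory products, 8 were tested. CCK, a hormone of enteroendocrine cells, had 3, 3 and 4 counts in control cells, 67, 34 and 56 after CoCl2 and 9, 16 and 4 after OD, which is 18.6 times control with CoCl2 (exact counting interval 9.83 to 39.5) and 2.60 times with OD (1.23 to 5.98). With OD it was no longer called without control replicate 2 (adjusted p = 0.0655), without OD replicate 2 (adjusted p = 0.239) and with DESeq2 on 9 or 6 libraries (adjusted p = 0.0598 and 0.166). Of the exonic bases of CCK, 32.53% lie opposite a gene on the other strand, and it is not stated whether the counting used strand. ZG16, a lectin of goblet cell mucus, fell with CoCl2 (-2.02, SE 0.30, adjusted p = 9.89e-09). The goblet cell mucin gene MUC2 had 0 to 4 counts in every library and was not tested, while AGR2 was abundant at 5595 to 8230 counts and TFF3 had 138 to 390, neither called in any comparison. The Paneth cell defensins DEFA5 and DEFA6 had 0 or 1 count in each library, while LYZ, also a Paneth cell marker, had 639 to 985. Its log2 fold change was 0.53 with CoCl2 (adjusted p = 9.17e-12 by edgeR), under the fold threshold, and -0.051 with OD (adjusted p = 0.485). With library size alone the value with CoCl2 was 0.020 (adjusted p = 0.766).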

How the data were processed

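Messenger RNA of 9 uCaco-2 libraries was measured, 3 per condition. The authors trimmed single-end reads with cutadapt 2.10, checked them with FastQC 0.11.9, mapped them on GRCh38.p13 with STAR 2.7.5b and deposited raw counts per gene symbol on GENCODE release 34, and 0 columns were left unused. The counting tool and its strand and multi-mapping rules are not given in the sources used here. Total counts of 15998136 to 24209427 per library set the precision, with standard errors of 0.04 to 0.05 for log2 fold changes of NOTCH2 and JAG1 and 0.33 to 0.47 for HEY1 against control.

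TMM factors, expression filter and robust quasi-likelihood fit of edgeR 4.0.16 (R 4.3.3) ran over 9 libraries with 1 mean per condition and Benjamini-Hochberg adjustment over all 15944 tested genes. Standard errors are the fitted change divided by the root of its F value. CPM were divided by GENCODE release 44 exon lengths on GRCh38 for levels per kilobase. The alternatives were DESeq2 1.42.0, other scalings, filters and thresholds, 6-library fits, a replicate block and each library left out. On simulated counts with 200 changed genes for CoCl2 against control, the fit recovered 193 (96.5%) among 15462 genes with 2 false calls. In the data, 6891 of the 15944 tested genes were called with CoCl2 against control. How well the fit and the TMM scaling perform with that many called genes was not tested.

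The members and gene lists were chosen with earlier results of these data known. Named are all members, list genes called against control, the NOTCH2 paralogs, markers, hypoxia genes and the 3 patterns most like HES1 and JAG1. Some list genes that meet this rule are not reported here. List genes named without a call, or at low counts, were chosen after their values were seen.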

Additional observations from a re-analysis of the deposited data

How the results depend on the processing

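Of 482 alternative values for the 27 log2 fold changes of members, 468 kept their direction and side of the threshold, as did 709 of 725 for the 41 other named calls. Both reversals came with library size alone, between CoCl2 and OD, where JAG1 turned to -0.058 (adjusted p = 0.186) and DLL4 to -0.28 (adjusted p = 0.0996). With that scaling NOTCH2 passed the fold threshold with CoCl2 (-1.24) and NOTCH1 did so against OD (-1.42, and -1.01 with upper-quartile factors).

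With the adjusted p alone, 9 members were called with CoCl2, 9 with OD and 8 between the treatments, 68, 59 and 73 genes of the whole list, and 13260, 10466 and 13311 of all tested genes. With OD, glmTreat against a log2 fold change of 1 called 1 member, 8 list genes and 965 genes in all. Between the treatments it called 3 members, where no alternative called fewer than 4394 genes in all. At least 10 counts in every library left 9 list genes and 1134 genes in all called with OD, by construction without HEY1. Leaving out each library in turn gave 5 members with CoCl2, 1 to 3 with OD and 5 between the treatments, with the lowest number without control replicate 2. The same fits called 6908 to 7207, 2150 to 2274 and 6572 to 6917 genes in all.

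Same-numbered libraries of different conditions did not deviate together (r of -0.0049 to 0.038), so the numbers were not taken to pair libraries. With the replicate block, 5, 3 and 5 members were called, as without it, and 6901, 2115 and 6568 genes in all. The depth limits HEY1, DLL4 and ATOH1, where few counts carry each value. The family sums with library size alone were added after seeing the data, with log2 ratios to control of -1.30 for receptors and 0.072 for ligands with CoCl2 against -0.80 and 0.58 with TMM.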

Other observations

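Secretory lineage genes that did not reach the expression filter had few counts and went both ways with CoCl2. CHGA, the granule protein of enteroendocrine cells, had 1 count in each control library, 16, 6 and 9 with CoCl2 and 0 or 1 with OD. FCGBP, a mucus protein of goblet cells, had 1, 4 and 1 counts in control cells, 6, 14 and 7 with CoCl2 and 2 in each OD library. PAX6, a transcription factor of enteroendocrine cells, had 1, 0 and 0 counts in control cells and 7, 1 and 6 with CoCl2. Summed counts were lower for SPINK4, a goblet cell product with 4, 4 and 2 counts in control cells and 5, 0 and 0 with CoCl2, CLCA1 with 3, 1 and 1 against 2, 0 and 1, and RFX6 with 2, 2 and 1 against 1, 0 and 0. All 6 were picked after the values were seen and were not tested. Of the tested enteroendocrine genes, SYP had a log2 fold change of -0.97 with CoCl2 (adjusted p = 9.99e-14 by edgeR), under the fold threshold, and CHGB one of -0.25 (adjusted p = 0.255). NEUROD1 had no count in any library, and NEUROG3, which starts the enteroendocrine lineage, had 1 count in all.

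DLL3, the fifth ligand, had 33, 50 and 45 counts in control cells, 40, 21 and 33 with CoCl2 and 85, 86 and 78 with OD. It was higher with OD by a log2 fold change of 0.80 (SE 0.17, adjusted p = 3.44e-05 by edgeR), under the fold threshold, and with CoCl2 the value of -0.20 did not pass (adjusted p = 0.361). Its difference between the treatments of -1.01 was called (SE 0.18, adjusted p = 1.34e-06).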
